A study of Mus musculus with 6 samples.

Results

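Il1a and Il1b encode the cytokines interleukin-1 alpha and interleukin-1 beta, and their transcripts were examined in mouse bone marrow-derived macrophages with and without bacterial lipopolysaccharide (LPS). They were taken by transcript identifier, ENSMUST00000028882_at for Il1a and ENSMUST00000028881_at for Il1b, and are 2 of the 74007 transcript rows measured. The rows were selected on their log2 expression in these same arrays, as transcripts that differ between LPS and unstimulated cells, so their levels and differences are a description without a test. The LPS group comprised 3 arrays of macrophages given LPS at 10 ng/mL on day 7 of culture and kept with it for 4 h, and the unstimulated group comprised 3 arrays of macrophages without LPS. All cells were from female C57BL/6J mice aged 8 to 12 weeks on normal chow, and all were grown from femoral marrow in 50 ng/mL of human M-CSF, the growth factor of macrophages, and replated on day 6. Each of the 3 mice gave a culture to both groups, per the series text. RNA was hybridised to Affymetrix Mouse Exon 1.0 ST arrays, and the values are the authors' log2 expression values. Each is a bulk value, so that a change in the number of cells expressing a gene and a change in RNA per cell cannot be told apart.

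Interleukin-1 alpha and beta signal through the same receptor, a complex of IL1R1 and IL1RAP, whose intracellular domain recruits MyD88 and activates NF-kB and MAP kinases. LPS is recognised by TLR4 together with CD14 and MD-2, and TLR4 uses the same MyD88 route as well as another through TRIF. Interleukin-1 beta is made as an inactive precursor that caspase-1 cleaves in inflammasomes, whereas the interleukin-1 alpha precursor already binds the receptor and can be processed by calpain. Transcript levels therefore describe the supply of precursor mRNA and not the release of cytokine. The antagonist Il1rn, the receptors, the inflammasome genes and the markers of macrophages and other marrow cells could not be located among the rows, because 0 Ensembl identifiers are held by the gene table used to name them. The cell type of the cultures was for that reason not checked against its markers.

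Il1a and Il1b lie close together on mouse chromosome 2. In the RefSeq annotation of GRCm38.p6, 2 genes are listed between them, the small nuclear RNA gene Gm25703 and the pseudogene Gm18333, and 0 protein-coding genes. Genes were ordered by start coordinate, which does not show whether neighbours overlap. In this order the long non-coding RNA gene Il1bos comes next after Il1b. The long non-coding RNA gene Gm14023 and the protein-coding gene Ckap2l come before Il1a. Which probes make up each transcript row is not stated in the labels, so it is not known whether the Il1b row also reads RNA of Il1bos. The promoters are shown because both transcripts were higher with LPS in the same arrays. Each window runs from 250 bases before to 50 bases after the gene start used in the RefSeq table and is read on the minus strand of GRCm38.p6, at chr2:129309923-129310222 for Il1a and at chr2:129371090-129371389 for Il1b. Capitals mark matches to the motifs described below.
Il1a: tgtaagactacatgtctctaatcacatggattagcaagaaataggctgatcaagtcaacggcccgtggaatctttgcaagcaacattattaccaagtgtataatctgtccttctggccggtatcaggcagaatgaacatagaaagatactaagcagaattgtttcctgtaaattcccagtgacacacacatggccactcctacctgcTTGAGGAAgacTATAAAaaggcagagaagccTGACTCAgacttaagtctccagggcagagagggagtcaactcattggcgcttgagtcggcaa
Il1b: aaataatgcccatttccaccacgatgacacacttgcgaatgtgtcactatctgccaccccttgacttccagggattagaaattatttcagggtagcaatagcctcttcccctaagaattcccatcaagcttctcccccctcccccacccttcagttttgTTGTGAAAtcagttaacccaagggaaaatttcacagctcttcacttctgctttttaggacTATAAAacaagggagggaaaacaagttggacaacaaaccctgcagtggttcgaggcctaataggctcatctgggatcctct

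Both windows held a single TATA box, the element that positions the start of transcription, searched as TATAAA on both strands. With the first transcribed base counted as 1, it lay at -32 to -27 in Il1a and at -31 to -26 in Il1b, on the gene's strand. The longest run of bases common to both windows was GACTATAAAA, 10 bases long, which spans the TATA box and lay at -35 to -26 in Il1a and -34 to -25 in Il1b. TATAAA was found in 13.6% of the 32851 RefSeq promoter windows of this length on either strand, and in 8.32% on the gene's strand. The common run, singled out after the sequences were seen, was found in 13 windows, searched on the gene's strand only. Both windows also held 1 match to the C/EBP motif TTNNGNAA, at -43 to -36 in Il1a and -91 to -84 in Il1b, against 40.7% of all windows with at least 1 match. C/EBP proteins and PU.1 are factors of the myeloid lineage. The PU.1 core GAGGAA matched once in Il1a, at -41 to -36 and inside the C/EBP match, and not in the Il1b window (28.3% of all windows). The AP-1 motif TGANTCA matched at -12 to -6 in Il1a and not in Il1b (7.81% of all windows). The NF-kB consensus matched in neither window, against 4.51% of all windows. GC content was 44.7% in Il1a and 45.7% in Il1b, with a median of 52.7% over all windows. A match shows only that these letters are present, and sequence outside the windows was not searched.

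**Figure D1:**
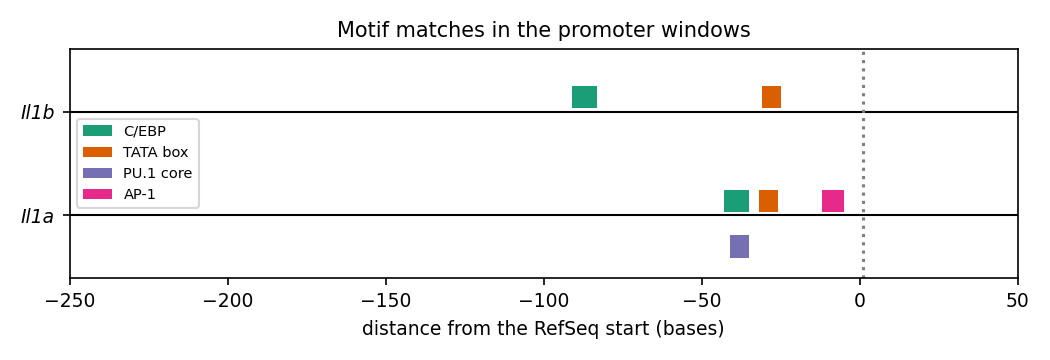
Position of motif matches in the promoter windows of Il1b and Il1a, in bases from the RefSeq start (dotted line). Each box is a match, and the PU.1 core of Il1a is drawn below the line because it lies inside the C/EBP match. The TATA boxes of both genes lie about the same distance before the start, at -31 to -26 in Il1b and -32 to -27 in Il1a.

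Il1b, the precursor cleaved by caspase-1, stood among the brightest rows of the LPS arrays and near the dim end of the unstimulated arrays. Its log2 expression was 12.27, 12.44 and 12.30 in LPS arrays 1, 2 and 3, against 6.76, 6.82 and 6.75 in unstimulated arrays 1, 2 and 3. All 3 LPS arrays were high and all 3 unstimulated arrays low, and the groups were 5.45 apart at their nearest values. The means were 12.34 ± 0.088 with LPS and 6.78 ± 0.041 without (SD, n = 3 each), a difference of 5.56 ± 0.056 (SE) on the log2 scale or 47.3-fold. This SE, like that of Il1a below, treats the groups as independent, although each mouse gave a culture to both. The 3 LPS arrays spanned 0.17, so the difference was 33.6 times their range. Within each array, 99.1% to 99.3% of rows were lower than Il1b with LPS, against 12.6% to 16.1% of rows in the unstimulated arrays. These shares place a row in its own array and do not give its abundance, since signals also depend on the probes of a row.

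Il1a, the precursor that is active without cleavage, was also high in the LPS arrays alone. Its log2 expression was 10.80, 11.49 and 11.04 in LPS arrays 1, 2 and 3, against 6.38, 6.44 and 6.50 in unstimulated arrays 1, 2 and 3. The groups did not overlap and were 4.30 apart at their nearest values. The means were 11.11 ± 0.35 with LPS and 6.44 ± 0.062 without (SD, n = 3 each), a difference of 4.67 ± 0.21 (SE) on the log2 scale or 25.5-fold. LPS array 2 was the highest array for Il1a and LPS array 1 the lowest, 0.69 apart, and the difference between the groups was 6.74 times that range. Between 94.4% and 97.3% of rows were lower than Il1a in the LPS arrays, against 2.89% to 5.18% in the unstimulated arrays.

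**Figure D2:**
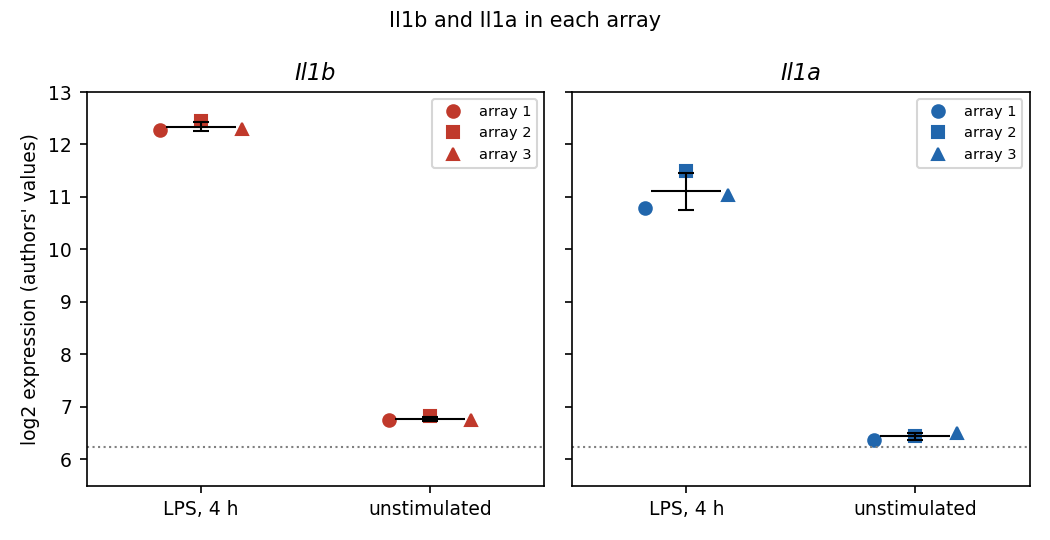
Log2 expression of Il1b (left) and Il1a (right) in each array, LPS beside unstimulated, with the mean and SD of 3 arrays in black. The dotted line is the mean of the arrays' 1st percentiles, and the unstimulated values of Il1a sit closest to it. The LPS arrays of Il1a lie further apart (10.80 to 11.49) than those of Il1b (12.27 to 12.44).

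Across all rows, 14.9% had every LPS array above every unstimulated array, as had both Il1a and Il1b. The limma fit over all 74007 rows called 32.0% of them at a Benjamini-Hochberg adjusted p under 0.05, with 8.75% higher and 3.00% at least 2-fold higher with LPS. Which direction held more calls depended on scaling. More rows were lower as deposited (6472 higher, 17195 lower), after quantile normalization (9768 and 12731) and after cyclic loess (10499 and 11053). More were higher after median centring (23708 higher, 11887 lower) and after centring on rows above the median level (25171 and 10827). A call at 16-fold or more was reached by 78 rows, or 0.105%. Il1a and Il1b are counted among these rows, but they were selected on this same contrast, so their inclusion is not a test of them. Ranked by the size of the rise in the deposited values, Il1b was number 8 and Il1a number 28, and neither shared its 6 values with another row. These places count transcript rows, so a gene with several transcripts can be counted more than once. The place of Il1a depended on the background. It was number 10 with the lowest value of each array subtracted on the linear scale and number 4 with the 1st percentile subtracted. These places are among the 74001 and 72492 rows, respectively, that lay above the subtracted value in every array. The rows left out could not be ranked. The row just above Il1b differed by 5.69 and the row just below by 5.54. For Il1a the neighbouring differences were 4.85 above and 4.67 below. The median of all rows was lower in the LPS arrays, with a difference of -0.15 on the log2 scale (LPS minus unstimulated). The differences of Il1a and Il1b are not corrected for this shift, which is small beside them.

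**Figure D3:**
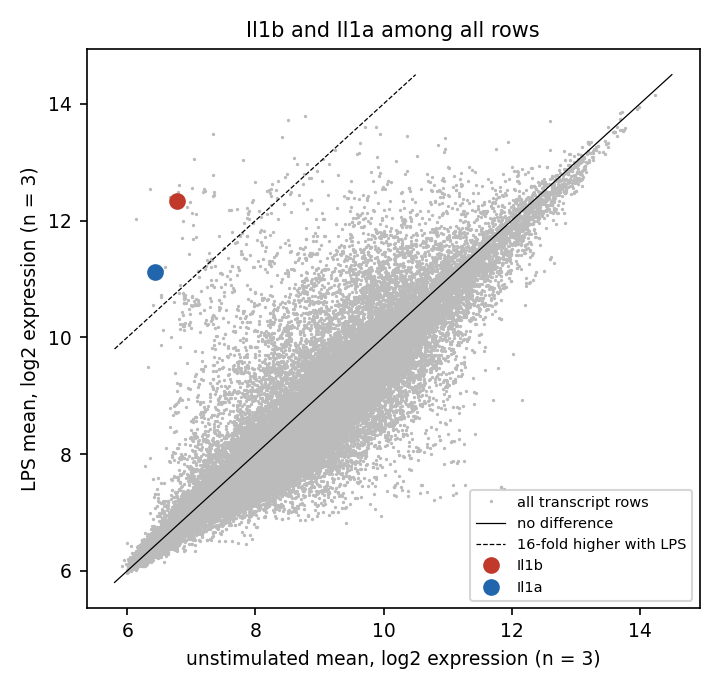
Mean log2 expression with LPS (vertical) against the unstimulated mean (horizontal) for all 74007 transcript rows, n = 3 arrays each. The solid line is no difference and the dashed line a 16-fold higher value with LPS. Il1b (red) and Il1a (blue) lie above the dashed line, starting from the dim end of the unstimulated scale.

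The rise of Il1b was larger than that of Il1a in the values as deposited. Same-numbered arrays were taken as pairs, with the ground for this given with the processing. Il1b was higher with LPS by 5.52, 5.62 and 5.55 in pairs 1, 2 and 3, or 45.8-fold, 49.0-fold and 47.0-fold. Il1a was higher with LPS by 4.42, 5.05 and 4.55 in the same pairs, or 21.5-fold, 33.1-fold and 23.3-fold. In each pair the log2 difference of Il1b exceeded that of Il1a, by 1.09, 0.57 and 1.01. The mean of these was 0.89 ± 0.28 (SD, n = 3 pairs), so the fold of Il1b was 1.85 times that of Il1a. The gap was narrowest in pair 2, where Il1a was highest with LPS.

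The unstimulated values lie close to the lower end of the scale, and the order of the rises depended on what was taken as background. The 1st percentile of an array lay between 6.22 and 6.24 in all 6 arrays. Unstimulated Il1b was 0.51 to 0.59 above it and unstimulated Il1a 0.15 to 0.26 above it. With the 1st percentile of each array subtracted on the linear scale, Il1b had 4873, 5475 and 4974 units of array signal in LPS arrays 1, 2 and 3, against 33.5, 37.9 and 32.1 in unstimulated arrays 1, 2 and 3. Il1a then had 1707, 2805 and 2037 units in the LPS arrays, against 8.42, 11.7 and 15.1 in the unstimulated arrays. The fold was 148 for Il1b and 187 for Il1a, and the difference of Il1b minus that of Il1a became -0.33, with values of -0.48, -0.73 and 0.20 in pairs 1, 2 and 3. With the lowest value of each array subtracted instead, the folds were 101 for Il1b and 76.8 for Il1a. The difference of Il1b minus that of Il1a was then 0.39, with values of 0.52, 0.013 and 0.64 in pairs 1, 2 and 3. Background levels of the 2 rows were not among the files, so neither the size of each fold nor their order is settled by these arrays. The smallest rises under any setting run were 21.7-fold for Il1a and 41.4-fold for Il1b, with an offset of 16 added before the logarithm.

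**Figure D4:**
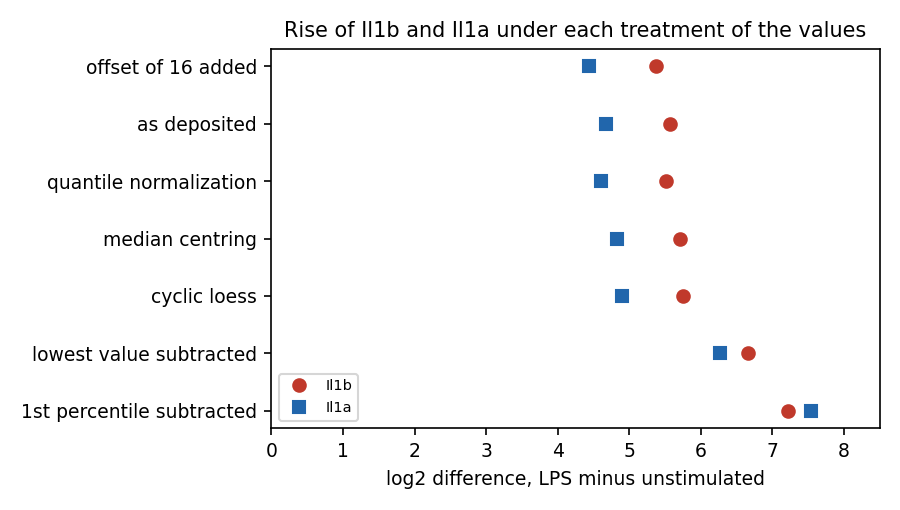
Log2 difference, LPS minus unstimulated, of Il1b (red circles) and Il1a (blue squares) under 7 treatments of the values, n = 3 arrays per group. Il1b lies to the right of Il1a in the values as deposited and after between-array normalization, and to the left of it (7.21 against 7.55) when the 1st percentile of each array is subtracted.

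The LPS arrays varied more in Il1a than in Il1b. Among the other 76 rows raised at least 16-fold, the SD between LPS arrays had a median of 0.15 and quartiles of 0.10 and 0.23. The SD of Il1a, 0.35, exceeded that of all 76 of them, while that of Il1b, 0.088, exceeded that of 12. Rows called at 16-fold numbered 104 after median centring, 111 after centring on rows above the median level and 63 with the offset of 16. The comparison of SDs used only the set called in the deposited values. Among the 1619 rows whose LPS mean lay within 0.25 of that of Il1a, 94.7% had a smaller SD, and among the 541 such rows around Il1b, 30.5% did. For the unstimulated arrays these shares were 62.3% of 7519 rows for Il1a and 42.7% of 13066 rows for Il1b. Il1a deviated from its LPS mean by -0.31, 0.38 and -0.067 in LPS arrays 1, 2 and 3, and Il1b by -0.065, 0.10 and -0.036. Both were thus highest in LPS array 2 and lowest in LPS array 1. Of the other 76 rows raised at least 16-fold, 25 (32.9%) were highest in LPS array 2, as were 31.5% of all rows, and 12 (15.8%) were highest in array 2 and lowest in array 1, as were 13.8% of all rows. The median deviations of the 76 rows were 0.056, 0.047 and -0.058 in LPS arrays 1, 2 and 3. Without LPS array 2, the difference of Il1a was 4.48 and that of Il1b 5.51. The source of the higher values in LPS array 2 was not tested.

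**Figure D5:**
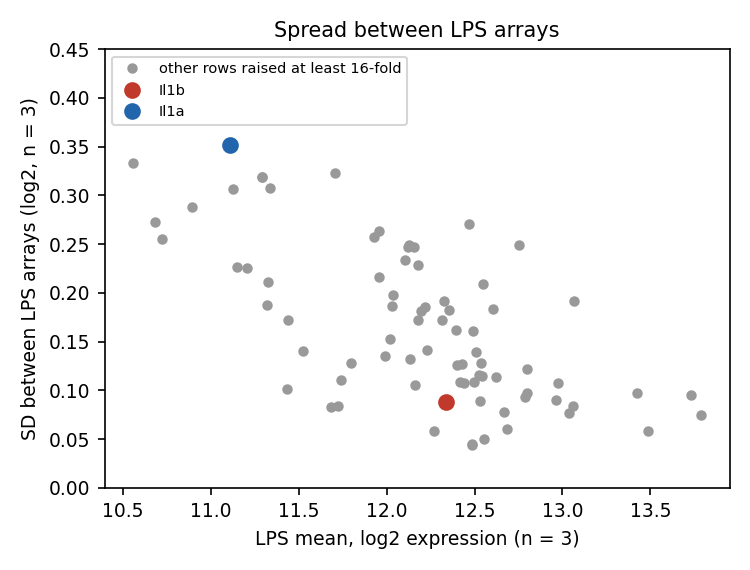
SD between the 3 LPS arrays (vertical, log2) against the LPS mean (horizontal) for the 78 rows raised at least 16-fold in the deposited values. Il1a (blue) has the highest SD of these rows, at 0.35, and Il1b (red) lies among the lower ones, at 0.088.

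In the deposited values, Il1a and Il1b were not among each other's 5 closest matches in profile. Likeness was measured as the Euclidean distance between the 6 values of a row, each taken relative to the row's own mean, over distinct rows. The difference between LPS and unstimulated arrays, on which Il1a and Il1b were selected, enters this distance. The matches are therefore a description and no separate evidence of likeness. The row nearest to Il1b was also the row just below it among the rises, with a difference of 5.54. The row nearest to Il1b was ENSMUST00000031365_at, at a distance of 0.25, with log2 expression of 12.51, 12.61 and 12.54 in the LPS arrays and 7.19, 6.94 and 6.92 in the unstimulated arrays. The row nearest to Il1a was ENSMUST00000101080_at, at a distance of 0.42, with 11.17, 11.37 and 10.92 in the LPS arrays and 6.45, 6.50 and 6.66 in the unstimulated arrays. The 5 nearest rows lay within 0.41 of Il1b and within 0.57 of Il1a. Il1a and Il1b were 1.16 apart, which made Il1b the number 82 match of Il1a and Il1a the number 30 match of Il1b. Only rows sharing all 6 values were merged, so these places can count a gene with several transcripts more than once. The number 2 match of Il1a also lay at 0.42, with 11.22, 11.42 and 10.97 in the LPS arrays, close to the number 1 match. The gap between their rises, which depends on the background, alone gives a distance of 1.09. With the lowest value of each array subtracted the distance was 0.67, with Il1b the number 6 match of Il1a and Il1a the number 7 match of Il1b. With the 1st percentile subtracted it was 0.86, and these places were 5 and 7. Both settings compared only rows above the subtracted value in every array. No gene names were paired with these rows in the files.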

How the data were processed

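The authors deposited log2 expression values per transcript row, according to the series text. PLIER, a method that condenses probe signals into a row's value, and Affymetrix Power Tools are named in the submitters' processing notes. For versions, any offset, normalization between arrays, probe-set definition and genome build, details were not given in the sources used here. Values ran from 5.84 to 14.4. Arrays of a group correlated across rows at r = 0.986 to 0.993, and arrays of different groups at 0.910 to 0.926.

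Il1a, Il1b and the gene lists were chosen with earlier results of these data known. Rows could not be paired with symbols, so the IL-1 pathway and marker lists, and the naming rule resting on them, were not applied: the text names Il1a, Il1b, their RefSeq neighbours and the row nearest to each in profile. Groups were taken from sample titles. Limma 3.58.1 in R 4.3.3 (lmFit, eBayes, two-sided, Benjamini-Hochberg over all 74007 rows, threshold 0.05) gave the counts of called rows, after a check on simulated data. The simulation changed few rows and drew independent errors for each array, so it does not show how accurate these counts are. Means, SDs, SEs and distances were computed with pandas 2.3.3. Promoter windows are those of RefSeq, GRCm38.p6, and both genes matched by symbol.

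Array deviations from the group mean correlated, within same-numbered pairs, at 0.50, 0.30 and 0.12, each above 0.1, so the numbers were taken as pairs. Arrays with different numbers were not compared, so these correlations do not show that same-numbered arrays share a mouse. The series text says that each mouse gave a culture to both groups, but does not tie the numbers to mice. The small number of arrays limits the precision.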

Additional observations from a re-analysis of the deposited data

How the results depend on the processing

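Across the 12 planned settings, the Il1b difference ran between 5.37 and 5.74, the Il1a difference between 4.44 and 4.90 and their gap between 0.77 and 1.03. Il1b (5.56 as deposited) moved by more than the SD of its pairs with the offset of 16 (5.37), median centring (5.71), cyclic loess (5.74), centring on rows above the median level (5.74) and LPS array 2 left out (5.51). The 2 background settings were added after the data were seen and ranked only rows above the subtracted value in every array. Subtracting the lowest value gave 6.66 for Il1b, 6.26 for Il1a and a gap of 0.39; subtracting the 1st percentile gave 7.21, 7.55 and a reversed gap of -0.33, and Il1a, number 28 among rises as deposited, became number 10 and number 4 with these settings. Leaving out each array in turn gave 5.51 to 5.60 for Il1b, 4.48 to 4.83 for Il1a and 0.77 to 1.03 for the gap, with 18380 to 22009 rows called and 2151 to 2348 at least 2-fold higher. Of all rows 23667 were called in the deposited values, 35595 after median centring (23708 higher, against 6472 as deposited) and 35998 after centring on rows above the median level (25171 higher). Calls at least 2-fold higher (2222) lay between 2137 and 2775 under all 15 settings. With the replicate block, the differences of Il1b and Il1a were the same, at 5.56 and 4.67, and 26284 rows were called. The pathway lists could not be run without gene names. No detection level is known. Unstimulated Il1a and unstimulated Il1b, both near the lower end of the scale, therefore cannot be told from absent.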
